A study of Mus musculus with 28 samples.

Results

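Metabotropic glutamate receptors are G protein-coupled receptors that sense glutamate, the main excitatory transmitter of the brain. The 6 genes described here are Grm5, Grm2, Grm3, Grm4, Grm7 and Grm8, chosen as members of this gene family and found by symbol among the 23453 genes of an exonic count table and the 20422 genes of an intronic count table. The tables hold 8 genes of the family in all, and the other two are not described here.

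The receptors fall into 3 groups. Group I, to which Grm5 belongs, couples to Gq and phospholipase C, releases calcium from internal stores and sits mostly after the synapse, where Homer and Shank proteins hold it. Group II (Grm2 and Grm3) and group III (Grm4, Grm7 and Grm8) couple to Gi/o, lower cyclic AMP and mostly restrain transmitter release. Grm7 lies in the active zone of many nerve endings, Grm3 and Grm5 are known in glia as well as in neurons, and the genes of the family are expressed very unevenly among cell types of the cortex.

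RNA was sequenced from 28 single cells of mouse cortex. The sample labels name 8 astrocytes and 12 neurons from C57/BL6 primary culture, collected by pipette, and 8 interneurons of C57/BL6/N mice drawn into a patch clamp pipette in acute slice preparations. No treatment is named. Under cultured cells they describe a 3-month-old male mouse fixed by perfusion, the study's methods describe cultures from embryonic brain of whole, mixed-sex litters, and no age is given for the slices, which were of prefrontal cortex. No label names an animal or culture for a cell, so cells may share one. The cultured cells and the interneurons also differ in library kit and sequencer by the labels.

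The 28 columns of both tables carry codes (BRP or F with a number) that occur in no sample label. No column could be tied to a sample on that basis. The 28 cells count as 1 pooled sample here, values are given per cell or as lowest, median and highest, and no test between cells was made. The columns are shown in 3 sets by code alone: late BRP (BRP564 and BRP566 to BRP572, 8 cells), early BRP (the other 12 BRP cells) and F (8 cells). These sizes equal the numbers of astrocytes, neurons and interneurons in the labels, but no label ties a code to a cell type, and none is assigned to a set here.

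Markers differed between the sets in the following way. Aqp4, a water channel of astrocytes, ran from 652 to 2062 exonic counts per 1000000 exonic counts of the cell (CPM) in late BRP. Snap25, a synaptic protein of neurons, ran from 0 to 42.4 CPM there. Of the other neuron markers, Map2 (236 to 484 CPM), Stmn2 (53.8 to 433) and Tubb3 (0.303 to 53.4) had a count in every late BRP cell. Syt1, Rbfox3 and Nefl reached at most 17.3, 0.152 and 0.923 CPM. Of the 9 astrocyte markers listed, 8 had a count in every late BRP cell, and the remaining gap junction gene Gjb6 was at 0 in all of them. Snap25 ran from 607 to 3699 CPM in early BRP, and the vesicular glutamate transporter Slc17a6 had a count in 11 of 12 cells. Gad1, an enzyme of GABA synthesis, was counted in all 8 F cells with a range of 0.739 to 8713 CPM, and Slc17a7 reached 4.92 CPM there at most. The other GABAergic markers were uneven in F. Slc32a1 and Gad2 each had a count in 7 of 8 cells, with medians of 531 and 10.2 CPM. Lhx6 had a median of 0.524 CPM, and Sst, Pvalb and Vip had medians of 0. Summed CPM of the 9 astrocyte markers ran from 1522 to 6174 in late BRP, from 191 to 2475 in early BRP and from 0 to 4352 in F. For 7 neuron markers the sums were 299 to 801, 4898 to 9982 and 1608 to 17800. The F sums hide uneven markers. Snap25, Map2, Syt1 and Stmn2 had F medians of 1546, 646, 497 and 76.8 CPM. Rbfox3, Nefl and Tubb3 had F medians of 0.125, 0.527 and 4.45 CPM, with a count in 4, 5 and 5 of 8 cells. In early BRP the medians of these last genes were 150, 795 and 51.0 CPM.

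Some cells stood apart before any receptor was considered. BRP528 of early BRP had 1136 CPM of Gad1, against at most 0.204 in the other 11 cells, and no count of Slc17a7 or Slc17a6. On the same GABAergic list, Slc32a1 was at 798 CPM in BRP528 and at most 0.0572 in the others, and Sst had no count in BRP528. Gad2 was not confined to BRP528, though highest there (780 CPM): 10 of 12 cells had a count, with 340 CPM in BRP541. BRP528 and BRP529 carried astrocyte markers, with 142 and 418 CPM of Aqp4. F16 was the shallowest cell (838343 exonic counts) and had 2093 CPM of Csf1r, a microglial receptor. F1 had the lowest intronic share of all counts (5.31%), while the other F cells lay between 36.3% and 63.0%. F7 had 4350 CPM of Slc1a2, a glutamate transporter rich in astrocytes, and 156 CPM of the myelin gene Mbp, with Gfap at 1.38 CPM and Aqp4 at 0. Slc1a2 did not go with the other astrocyte markers in these cells, since its median was 804 CPM in early BRP and 192 CPM in late BRP. The part of these markers in the receptor values was not tested. Depth also differed: exonic counts per cell ran from 12969692 to 19798892 in late BRP, from 17483754 to 26770944 in early BRP and from 838343 to 14831505 in F. The F cells had an exonic count for 2338 to 7218 genes and the BRP cells for 9869 to 12815, so a missing count weighs less in F.

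The genes differ greatly in size, which sets how many intronic reads each can collect. In GENCODE M21 on GRCm38, Grm7 spans 922 kb of chromosome 6 (chr6:110645581-111567230, plus strand) with 5.89 kb of exon. Grm8 spans 860 kb elsewhere on the same chromosome (chr6:27275119-28135178, minus strand), and Grm5 551 kb of chromosome 7 (chr7:87584168-88134907, plus strand) with 10.2 kb of exon. Grm3 covers 240 kb (chr5:9485541-9725170, minus strand), Grm4 99.0 kb (chr17:27422387-27521403, minus strand) and Grm2 13.0 kb (chr9:106643095-106656082, minus strand). No other annotated gene that overlaps them was listed with counts in either table. Whether the counting used strand is not given in the sources used here, so reads from the opposite strand could be included.

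The 2 group III genes with the longest introns are shown by their promoters, since one was counted in the exons of all early BRP cells and the other hardly at all. Each window is 300 bases long and lies mostly before a transcription start, with 50 bases after it (RefSeq, GRCm38.p6), from 5′ to 3′ on the gene's strand, and capitals mark the letters GGGCGG of a GC box found on either strand. The windows are chr6:110645262-110645561 on the plus strand for Grm7 and chr6:28135097-28135396 on the minus strand for Grm8. Both genes have further listed starts, and the outermost one is printed.
Grm7: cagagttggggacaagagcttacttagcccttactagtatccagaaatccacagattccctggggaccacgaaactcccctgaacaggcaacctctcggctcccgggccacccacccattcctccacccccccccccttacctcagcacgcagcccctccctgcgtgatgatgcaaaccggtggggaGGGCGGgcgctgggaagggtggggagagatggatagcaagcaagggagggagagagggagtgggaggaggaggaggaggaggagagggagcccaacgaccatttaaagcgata
Grm8: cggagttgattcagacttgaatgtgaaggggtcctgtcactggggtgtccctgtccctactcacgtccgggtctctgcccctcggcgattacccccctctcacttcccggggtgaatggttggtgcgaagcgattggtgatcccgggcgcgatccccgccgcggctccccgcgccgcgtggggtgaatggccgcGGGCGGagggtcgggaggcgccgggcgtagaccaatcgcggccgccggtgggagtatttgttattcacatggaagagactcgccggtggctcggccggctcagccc
Each window held 1 GC box, as 35.7% of all 32851 windows of this length held at least 1, and neither held the letters TATAAA on either strand, which 13.6% of windows did. GC content was 61.0% for Grm7 and 67.0% for Grm8, against a median of 52.7% over all windows. The ratio of observed to expected CpG was 0.360 for Grm7 and 0.986 for Grm8. The windows of Grm2 and Grm3 held 4 and 2 GC boxes. These letters describe the windows and say nothing of the factors that bind them.

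Grm5 and Grm7 held nearly all exonic counts of the 6 genes. Summed over the 28 cells and divided by exon length, the order was Grm5 (11920 counts per kb), Grm7 (9252), Grm3 (84.9), Grm2 (55.2), Grm8 (26.7) and Grm4 (0.167). The sums of the lower 4 genes rest on few cells. The highest cell gave 13.4% of the exonic counts of Grm5 and 32.7% of those of Grm7, but 66.3% for Grm2, 74.5% for Grm3 and 79.9% for Grm8. The order of the lower 4 genes is therefore not separated from the spread between cells. Among all genes, Grm5 ranked at percentile 97.0 of summed exonic counts and Grm7 at percentile 92.0, while Grm2, Grm3 and Grm8 lay between percentiles 42.3 and 42.5.

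**Figure D1:**
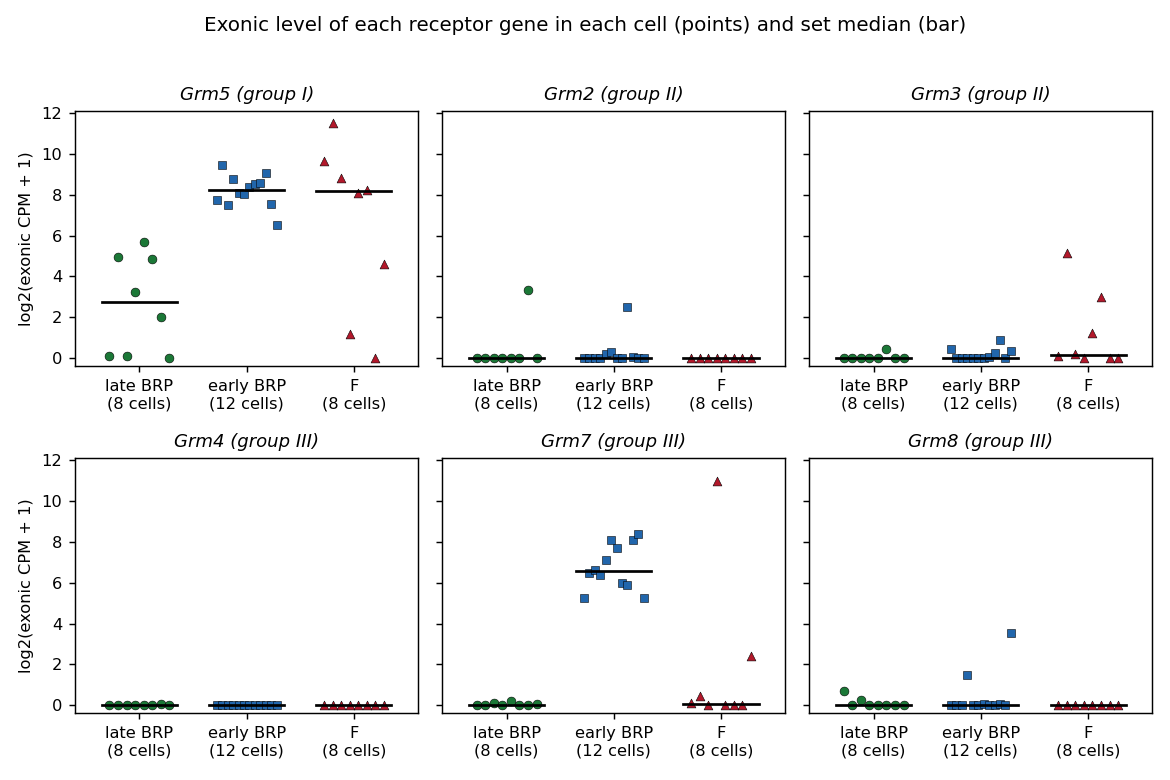
Exonic level of each gene on the log2(CPM + 1) scale (y axis) in the late BRP, early BRP and F cells (x axis), with 1 point per cell and a bar at the set median. Grm5 and Grm7 are above 0 in all 12 early BRP cells, the late BRP cells have Grm7 at or near 0, and 1 F cell (F7) has Grm7 at 2048 CPM.

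Grm5, the group I receptor, was the most widely counted, with an exonic count in 26 of 28 cells. In early BRP its exonic level ran from 91.3 CPM (BRP543) over a median of 302 to 708 CPM (BRP529). In late BRP it ran from 0 (BRP572) over a median of 5.83 to 50.7 CPM (BRP569). Every early BRP cell lay above every late BRP cell, and the ratio of the medians was 51.8. Grm7 was the only other of the 6 genes whose BRP sets were apart in this way, so the count is 2 of 6 genes, against 2.18% of the 18909 genes with an exonic count in these cells. Both separations were also seen with each of 4 other scalings. Late BRP was itself uneven for Grm5: BRP566, BRP569 and BRP570 held 476 to 658 exonic counts, BRP568 and BRP571 held 141 and 61, and the other 3 held 0 or 1. BRP569 and BRP566, the highest for Grm5, had no count of the neuron markers Snap25, Rbfox3 and Nefl, and Syt1 was at 0.0771 and 0 CPM. Other neuron markers were counted in both: Map2 at 354 and 406 CPM, Stmn2 at 215 and 150, and Tubb3 at 10.3 and 9.29. BRP566 also had 133 CPM of Slc17a6, and BRP569 had 42.6 CPM of the GABAergic marker Slc32a1.

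In the F cells Grm5 spread over the whole range of the data. F2 had 2951 CPM (16335 exonic counts), the highest level of Grm5 in any cell, and F1 had 806 CPM. F6, F12 and F11 followed with 449, 304 and 271 CPM, F24 had 23.6 CPM, F7 had 1.27 CPM from 11 counts, and F16 had none. The median of 287 CPM lay close to that of early BRP, and the sets overlapped. That closeness depends on the scaling: the F median was 909 with TMM factors and 2034 with DESeq2 size factors, where early BRP stayed at 326 and 326. With its low depth, the 0 counts of F16 allow a level of up to 3.58 CPM (3 counts), a limit that covers counting error only.

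Grm7, the group III receptor of the active zone, was counted in the exons of all 12 early BRP cells. Its exonic level there ran from 36.6 CPM (BRP543) over a median of 93.3 to 338 CPM (BRP542). BRP528, the cell with high Gad1, was next to lowest with 37.7 CPM. In late BRP the 8 cells held 4 exonic counts of Grm7 in all, among 135314191 exonic counts, and the highest cell had 0.154 CPM. The early BRP cells thus stood clear of the late BRP cells by a wide gap, as the plot of exonic levels shows.

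Among the F cells a single one carried exonic Grm7. F7 had 17803 exonic counts of it (2048 CPM), F24 had 9, F2 had 2, F1 had 1, and the other 4 had none. F7 was also the F cell with 1.27 CPM of Grm5, whereas F1, F2 and F6, with 449 to 2951 CPM of Grm5, had at most 0.361 CPM of Grm7. In the early BRP cells both genes were counted together in every cell. There Spearman's rho between their exonic levels was 0.10 over 12 cells. This and the other correlations across cells are descriptions, since cells of a set have the preparation of that set in common and differ in depth.

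The remaining genes were sparse in exons. Grm3 had 259 exonic counts over 11 cells, of which F2 held 193 (34.9 CPM) and F12 19 (7.02 CPM). The highest BRP cell, BRP541, had 0.853 CPM. The late BRP cells, with high Aqp4, held 7 exonic counts of Grm3 in all, from BRP570 alone. Grm2, the other group II receptor, was counted in 5 cells: BRP571 of late BRP held 179 exonic counts (9.12 CPM), BRP540 held 81 (4.63 CPM), and BRP537, BRP536 and BRP541 held 6, 3 and 1. No F cell had an exonic count of Grm2 among 51154906 exonic counts, which allows up to 0.0586 CPM over the set.

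Grm8 and Grm4, both of group III, were sparse as well. Grm8 had 264 exonic counts, with 211 in BRP543 (10.8 CPM), 38 in BRP535 and 10 in BRP564, and 1 to 3 counts in 3 further cells. No F cell had an exonic count of it. Grm4 had 1 exonic count in the whole table, in BRP571, the cell that also held most of the Grm2 counts. BRP543, the cell with the lowest exonic level of Grm5 and of Grm7 in early BRP, thus had the highest exonic level of Grm8.

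Taken per kb of exon, Grm5 led the 6 genes in 19 cells, Grm7 in 5, Grm8 in 2 and Grm2 in 1, and F16 had no exonic count of any. In early BRP Grm5 led in 9 cells and Grm7 in 3 (BRP537, BRP538 and BRP542). Grm5 made up a median of 53.7% and Grm7 of 42.5% of the summed exonic level per kb there. In F, Grm5 made up a median of 96.2% over the 7 cells with counts, and the cell led by Grm7, F7, had 17803 of its 17814 counts from that gene. The late BRP cells led by Grm8 (BRP564, BRP567) and by Grm7 (BRP572) had 11, 5 and 1 exonic counts of the 6 genes in all, so their leads rest on next to nothing.

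The number of the 6 genes with an exonic count in the same cell was 1 to 3 in late BRP, 2 to 5 in early BRP and 0 to 3 in F. BRP541 had 5, all but Grm4, although Grm2 and Grm8 were there with 1 count each. With at least 5 counts required, the highest number was 4, in BRP543, with Grm5, Grm7, Grm8 and Grm3.

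The intronic table gave another picture: intronic counts of Grm5, Grm7, Grm3 and Grm8 were found in all 28 cells. Intronic CPM is set against the intronic counts of the cell. Grm7 held 430123 intronic counts, Grm5 336065, Grm8 13196, Grm3 8158, Grm4 1812 and Grm2 46. Per kb of intron the order was Grm5 (622 counts per kb), Grm7 (470), Grm3 (34.5), Grm4 (19.5), Grm8 (15.5) and Grm2 (5.68). Grm5 and Grm7 again stood far above the rest, and the highest cell gave 35.4% of the intronic counts of Grm3, 21.6% for Grm8 and 64.4% for Grm4, whose place rests largely on that cell (BRP543).

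**Figure D2:**
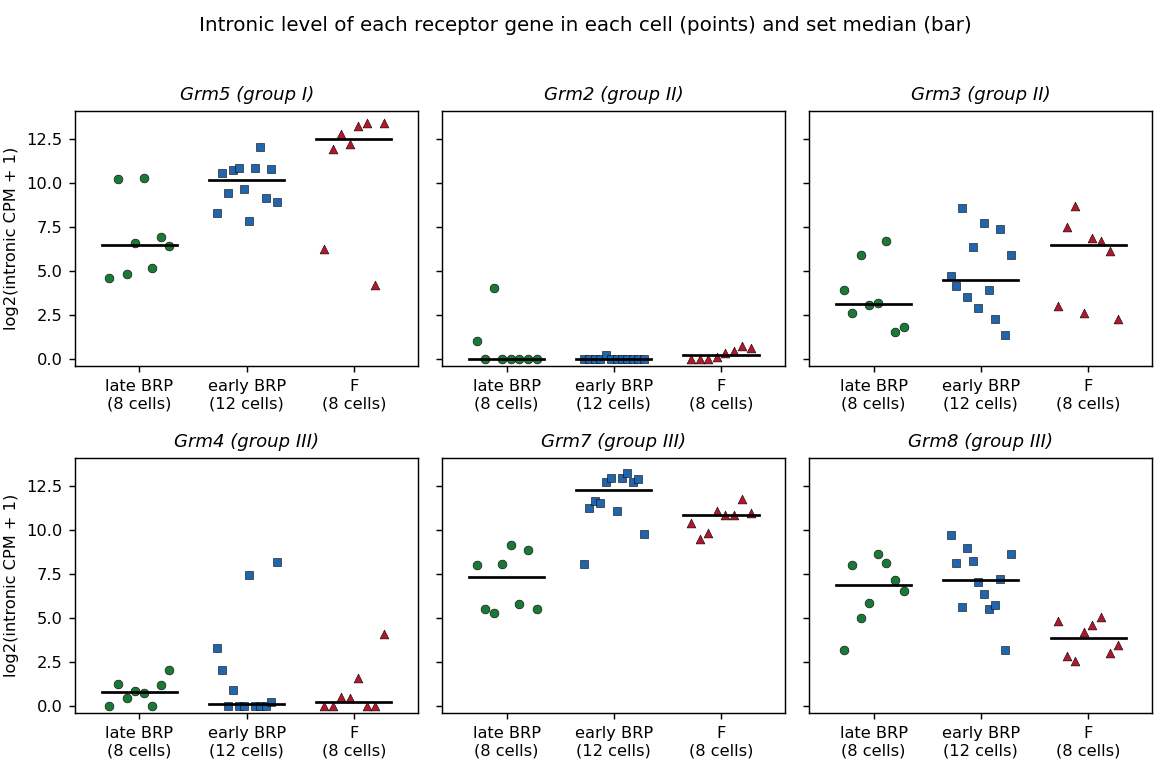
Intronic level of each gene on the log2(CPM + 1) scale (y axis) in the late BRP, early BRP and F cells (x axis), with 1 point per cell and a bar at the set median. All 8 F cells lie above all late BRP cells for Grm7, and the F cells lie low for Grm8.

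Intronic Grm5 was highest in the F cells. Its level there ran from 17.6 (F16) over a median of 5868 to 10998 CPM (F24), and the cells other than F16 and F1 lay between 3849 and 10998 CPM. Early BRP ran from 228 (BRP538) over a median of 1151 to 4297 CPM (BRP540). Late BRP ran from 23.7 (BRP564) over a median of 90.2 to 1234 CPM (BRP569). All 3 ranges overlapped. F16 and F1, which stood apart in depth and intronic share, were the cells that brought the F range down, with 17.6 and 75.7 CPM.

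Intronic Grm7 was highest in early BRP. It ran there from 273 (BRP528) over a median of 5066 to 9861 CPM (BRP540), in F from 710 (F2) over 1867 to 3488 CPM (F16), and in late BRP from 38.5 (BRP567) over 159 to 576 CPM (BRP569). All F cells lay above all late BRP cells for this gene, which held for 1 of the 6 genes and for 0.0302% of the 16538 genes with an intronic count in these cells. That share covers genes of any intron length, and none was computed among genes with introns as long as those of Grm7. The early BRP range overlapped that of late BRP through BRP528, which lay below all F cells, and that of F through BRP543 (884 CPM) and others.

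Exons and introns of Grm7 went separate ways in the F cells. The 7 F cells other than F7 had 0 to 9 exonic counts of Grm7 and between 1131 and 7294 intronic counts, and F7, with 17803 exonic counts, had an intronic level of 2162 CPM that lay inside the range of the other F cells. The 8 late BRP cells likewise had at most 2 exonic counts and between 62 and 863 intronic counts. For Grm5 the cell that stood out in this way was F7, with 11 exonic and 50306 intronic counts, and F24 came near it with 50 exonic and 39683 intronic counts. The opposite was seen in F1, with 11959 exonic and 63 intronic counts of Grm5.

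**Figure D3:**
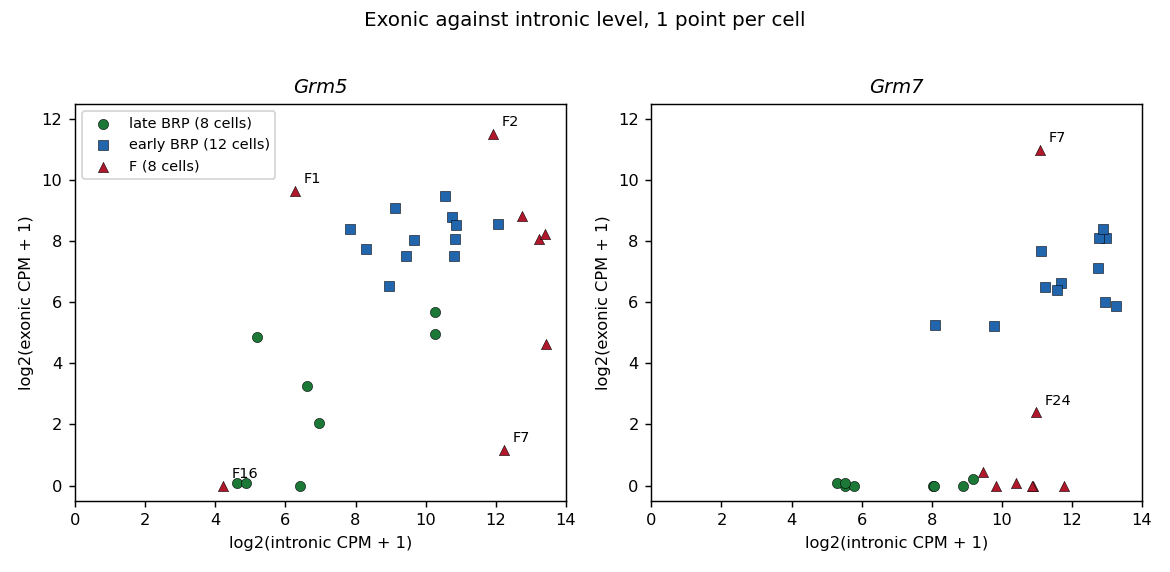
Exonic level (y axis) against intronic level (x axis) of Grm5 and Grm7, both on the log2(CPM + 1) scale, with 1 point per cell and colour and shape by set. The F cells with Grm7 at the bottom of the right panel have intronic levels of 710 to 3488 CPM, like F7 at the top (2048 exonic CPM).

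Within sets, the relation between exonic and intronic levels differed from set to set, with few cells in each. For Grm5, Spearman's rho was 0.69 in late BRP (8 cells), 0.29 in early BRP (12 cells) and -0.05 in F (8 cells). For Grm7 in early BRP it was 0.37. The intronic levels of Grm5 and Grm7 had a rho of 0.73 in early BRP and of -0.02 in F. The part of the intronic share of all counts in this, given next, was not tested.

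The intronic share, the percent of a gene's counts that were intronic, was compared with the share over all genes of the same cell. For Grm7 it lay above the share of all genes in all 28 cells, with 55.1% to 99.1% in early BRP and 98.9% to 100% in late BRP. F7 came closest to all genes, with 56.1% for Grm7 against 54.7%. For Grm5 it was above in 26 cells, the exceptions being F1 (0.524% against 5.31%) and BRP538 (8.27% against 11.7%). The median share of Grm5 was 76.8% in late BRP, 36.0% in early BRP and 97.0% in F, where all genes had a median of 8.75%, 15.7% and 50.4%. Between the share of Grm5 and that of all genes, rho was 0.82 in early BRP (12 cells), 0.79 in F and 0.02 in late BRP (8 cells each). For Grm7 it was 0.76 in early BRP, -0.33 in F and -0.57 in late BRP, where its shares were all near 100%. BRP540, with 38.8% over all genes, had 87.9% for Grm5 and 99.1% for Grm7.

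**Figure D4:**
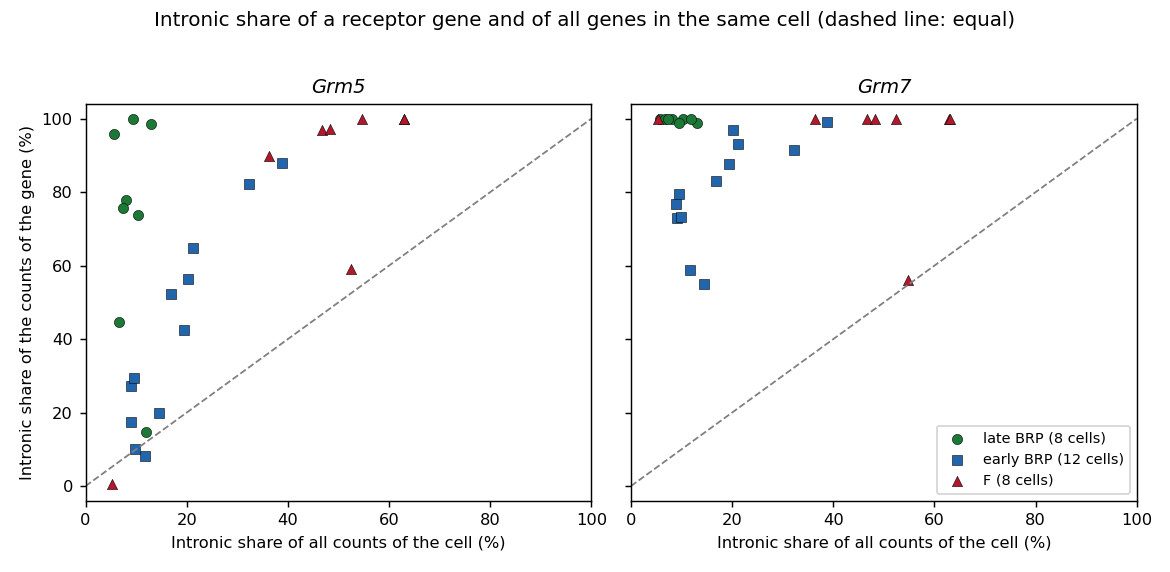
Intronic share of the counts of Grm5 and Grm7 (y axis, %) against the intronic share of all counts in the same cell (x axis, %), with 1 point per cell, colour and shape by set and a dashed line where both are equal. Only F1 and BRP538 lie below the line, both for Grm5, and the late BRP cells have Grm7 shares of 98.9% to 100%.

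Long introns gather many reads in any gene, so the intronic levels were also placed among the 4393 genes with at least 50 kb of intron, per kb and summed over each set. In early BRP, Grm7 ranked 25th of these genes (6.91 CPM per kb, against a median of 0.350) and Grm5 143rd (3.37). In F, Grm5 ranked 33rd (11.7 CPM per kb, against a median of 0.0536) and Grm7 476th (1.79). In late BRP, Grm5 was at percentile 58.5 and Grm7 at percentile 37.0, so the intronic counts of Grm7 in those cells were below those of a typical long gene (0.205 against 0.393 CPM per kb). Grm8 lay at percentiles 36.1, 37.3 and 28.2 in late BRP, early BRP and F, and Grm3 at percentiles 31.8, 36.6 and 77.8. The limit of 50 kb was chosen after the values were seen.

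Grm8 was counted in introns of every cell with few exonic counts beside them. Its intronic level ran from 8.25 (BRP564) over a median of 120 to 404 CPM (BRP569) in late BRP, from 8.28 (BRP542) over 142 to 837 CPM (BRP528) in early BRP, and from 4.96 (F6) over 13.7 to 32.1 CPM (F12) in F. The ranges of all sets overlapped, although the F cells were low. BRP564 was the cell with the lowest intronic level in late BRP and the highest exonic level there, with 8 intronic and 10 exonic counts. BRP528, with GABAergic markers, had the highest intronic level of Grm8 and the lowest of Grm7 in early BRP. Over the 12 early BRP cells the intronic levels of Grm7 and Grm8 had a rho of -0.65, against 0.33 in late BRP and 0.19 in F.

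Grm3 was also counted mainly in introns. Its intronic level ran from 1.94 (BRP571) over a median of 7.80 to 103 CPM (BRP570) in late BRP, from 1.64 (BRP542) over 21.2 to 384 CPM (BRP534) in early BRP, and from 3.88 (F24) over 87.4 to 421 CPM (F6) in F. The sets overlapped widely. F6, with the highest intronic level, had 2892 intronic and 2 exonic counts, whereas F2, with 193 exonic counts, had 1099 intronic counts. BRP570 was the highest late BRP cell in both tables.

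Intronic Grm4 came from few cells: BRP543 held 1167 counts (293 CPM), BRP538 517 (175 CPM), F24 59 and BRP528 30, and no other cell held more than 8. BRP543 and BRP538 had no exonic count of Grm4, so their counts were intronic throughout. Grm2, the shortest of the genes, had 46 intronic counts, of which BRP567 held 38 (15.7 CPM) without an exonic count. The cells with most exonic Grm2, BRP571 and BRP540, had no intronic count of it. In BRP543 the intronic level per kb was led by Grm4, which made up 54.7% of the 6 genes.

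The intracellular partners of the receptors were followed in 4 lists of 34 genes, chosen for their known roles. They are described by the number of genes whose median over a set was above 1 CPM in the exonic table, a level that 43.5% of all 23453 genes passed in late BRP, 37.8% in early BRP and 7.02% in F. Of 6 scaffolds of group I receptors, 2 passed in late BRP, 4 in early BRP and 2 in F. Homer1 and Homer2, which tie Grm5 to the postsynaptic density, had medians of 350 and 353 CPM in early BRP, 16.5 and 0.361 in late BRP, and 15.3 and 0.0674 in F. Homer3 went the other way between the BRP sets, with 0.224 CPM in early and 8.71 in late BRP. BRP528, with GABAergic markers, stood apart in early BRP: its Homer1 and Homer2 were the lowest there (18.2 and 13.9 CPM).

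Of 9 genes of the Gq pathway downstream of Grm5, 7 passed in late BRP, 7 in early BRP and 4 in F. Gnaq, the G protein subunit itself, was counted in all 28 cells, with medians of 344, 594 and 255 CPM in late BRP, early BRP and F. Itpr1, the calcium release channel, had 44.6, 224 and 2.64 CPM, and Dagla, which makes the endocannabinoid 2-AG, had 3.60, 32.5 and 0. Plcb3 was counted in all 8 late BRP cells (median 7.15 CPM) and in none of the other 20 cells, while Plcb1, another phospholipase C, had a median of 7.55 in late and 71.5 in early BRP.

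Of 10 genes of the Gi/o pathway of the group II and III receptors, 5 passed in late BRP, 8 in early BRP and 3 in F. Gnao1, the main Go subunit of brain, was counted in all 28 cells, with medians of 114, 617 and 183 CPM in late BRP, early BRP and F. Gnai2 and Gnai3 were higher in late BRP (237 and 204 CPM) than in early BRP (17.1 and 30.1), and Gnai3 had no count in the F cells. Gnai1 and the cyclase Adcy1 were higher in early BRP, with 331 and 306 CPM against 29.1 and 43.4. The channel subunits Kcnj3 and Kcnj6, which Gi/o opens, had medians of 0 in every set, whereas Kcnj9, of the same channel family, had a median of 8.42 CPM in early BRP (10 of 12 cells with a count) and of 0 in late BRP and F.

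Of 9 genes listed here as partners and regulators of group II and III receptors, 5 passed in late BRP, 8 in early BRP and 2 in F. Not all of them are particular to these receptor groups, Rgs2, Rgs4 and Ncdn among them, so the numbers describe the list alone. Rgs4 and Rgs2 shorten G protein signals, and their medians were 3087 and 2190 CPM in early BRP, 0 and 115 in late BRP, and 9.48 and 60.2 in F. Pick1, which binds the tail of Grm7, had 25.6 CPM in early BRP, 5.47 in late BRP and 0 in F. Elfn1, a partner of Grm7 across the synapse, had 1.61 CPM in late BRP and 0 in early BRP and F, while its relative Elfn2 had no count in late BRP and a median of 3.35 CPM in early BRP, with a count in 11 of 12 cells. F7, the cell with Grm7 at 2048 CPM, had no count of Elfn1 or Pick1, as was the case in most F cells. Elfn1 had a count in 1 and Pick1 in 2 of the 8 F cells.

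**Figure D5:**
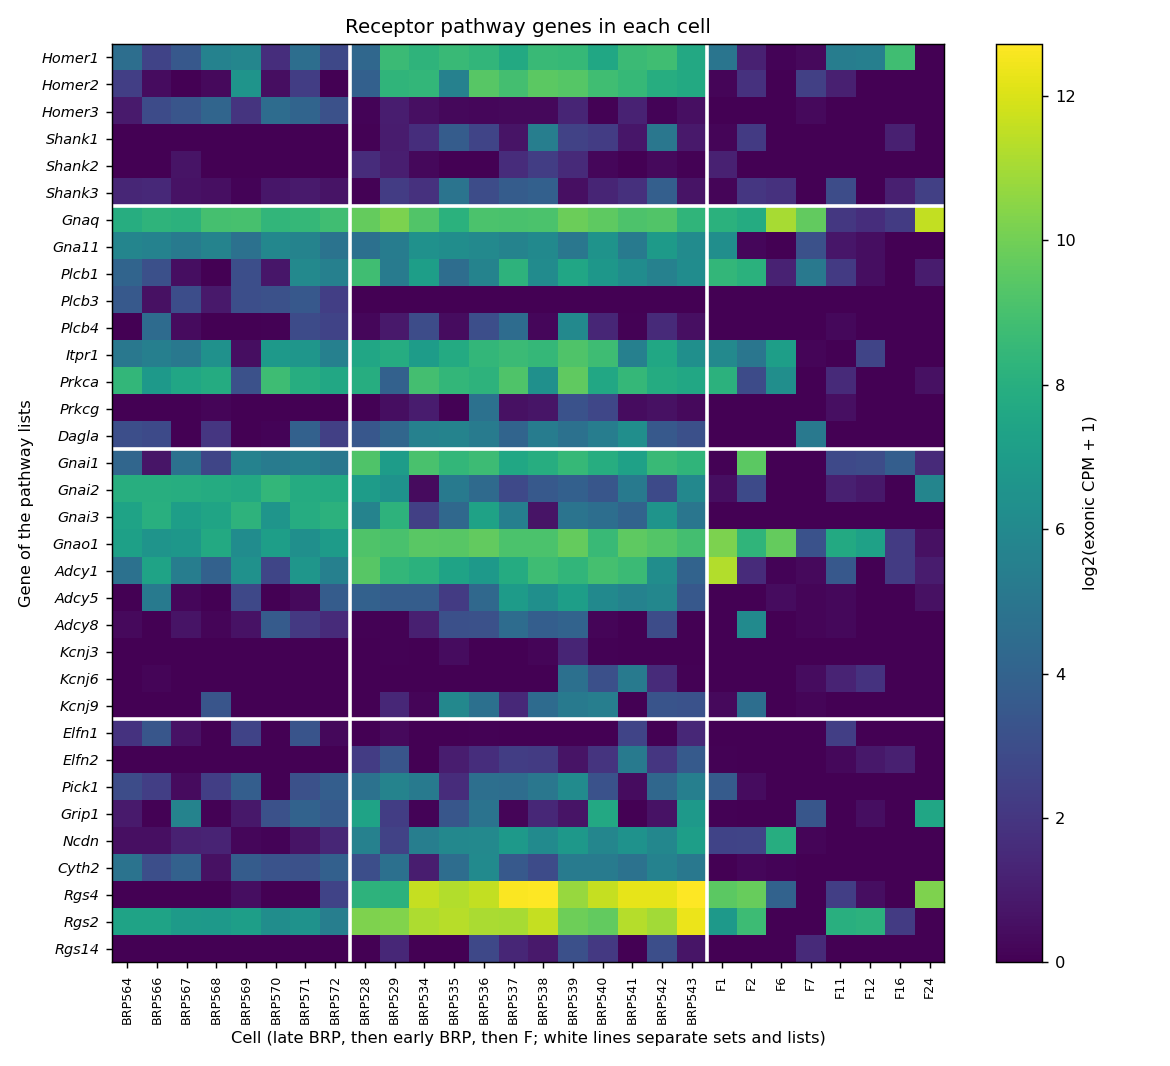
Exonic level on the log2(CPM + 1) scale (colour) of the 34 pathway genes (rows, in the order scaffolds, Gq, Gi/o, partners) in each of the 28 cells (columns, late BRP then early BRP then F). Homer1 and Homer2 are high over early BRP apart from BRP528, as are Rgs4 and Rgs2 in every early BRP cell, Plcb3 is counted in late BRP, and the F columns are mostly dark.

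For the 3 genes with an exonic count in at least 10 cells, the genes most like them were ranked by Spearman's rho of log2(CPM + 1) over the 28 cells, among 12147 genes. For Grm5 these included Syt1 (0.82), Nrsn1 (0.77) and Slc4a10 (0.77), and the least like were Kcnmb1 (-0.78), Parp9 (-0.74), Adamts5 (-0.73), Phkg1 (-0.73) and Irak1 (-0.72). For Grm7 they included Shc2 (0.88), Gars (0.86), Snph (0.85) and D3Bwg0562e (0.84), with Col1a2 (-0.72), Prob1 (-0.68), Tsc22d3 (-0.67), Mrgpre (-0.65) and Lrrk1 (-0.65) at the other end. These orders depended on the cells used. Over the 20 BRP cells alone, 0 of the 5 genes most like Grm5 and 1 of those most like Grm7 were again among the 5 most alike, and the rho between Grm5 and Grm7 was 0.75 in place of 0.34. Limiting the genes to those counted in at least 20 cells leaves each rho unchanged, so it does not check the order. Of the 5 highest genes, 4 for Grm5 and 4 for Grm7 met that minimum.

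For Grm3 the highest were Gabarapl1 (0.68), Elavl2 (0.66), Vstm2a (0.64), Rnmt (0.63) and Unc80 (0.59), and the lowest Trmt6 (-0.69), Trp53rk (-0.67), Tdrd3 (-0.67), Stx16 (-0.66) and Sfmbt2 (-0.61). With 11 cells above 0 and most of them at 1 to 19 counts, this ranking carries little, and 0 of the 5 highest genes were among the 5 highest over the BRP cells.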

How the data were processed

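RNA was sequenced from 28 single mouse cortex cells. The authors deposited whole-number read counts per gene, 1 table for exons and 1 for introns, without normalization. Per the submitters' processing notes, bcl2fastq 2.17, STAR 2.4.0 and mm10 were used. The counting tool, annotation and strand setting are not given in the sources used here. The 28 columns matched no sample label (0 of 28), so each table was taken as 1 pooled sample, with no cell type assigned and no test.

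Counts were divided by the cell's exonic or intronic total (CPM). Lengths are unions of exons and introns in GENCODE M21. Ranks used log2(CPM + 1). Python 3.11.15 (pandas 2.3.3, scipy 1.17.1) was used, and edgeR 4.0.16 and DESeq2 1.42.0 gave alternative scalings of the counts alone. In a chi-square comparison of all 378 pairs of columns, the most alike pair had 17.6 per degree of freedom. This covers counting error only and cannot show that columns are separate cells. Each column was counted as 1 cell. Of the other genes, those named were the 5 with the highest and lowest rho to a member counted in at least 10 cells, and the fixed pathway and marker lists; some genes that this rule names are not reported here. The members, lists and sets were chosen with earlier results of these data known. Precision is limited by depth, 838343 to 26770944 exonic counts per cell.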

Additional observations from a re-analysis of the deposited data

Results flagged for a closer look

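Among the 8 cells of late BRP and of F, 21 sets of values of the 6 genes were examined for a cell whose gap to its nearest neighbour was large against the range (log2(CPM + 1) scale, Dixon's 95% limit), and 8 had one. Chance alone flags about 1 in 20 sets of well-behaved values, and in lists that are mostly at 0 a few counts suffice. The one that rests on many counts is the exonic level of Grm7 in F7 (2048 CPM, 17803 counts, with the next F cell at 4.25 CPM). In the same cell Slc1a2 was at 4350 CPM and Mbp at 156 CPM, and the part of those markers was not tested. Exonic Grm2 stood apart in BRP571 (9.12 CPM, 179 counts) and intronic Grm2 in BRP567 (15.7 CPM, 38 counts). Intronic Grm4 stood apart in F24 (16.4 CPM, 59 counts). The rest are cells with 1 to 10 counts beside cells at or near 0: exonic Grm3 in BRP570 (0.354 CPM), exonic Grm4 in BRP571 (0.0510 CPM), exonic Grm7 in BRP569 (0.154 CPM) and exonic Grm8 in BRP564 (0.620 CPM).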

How the results depend on the processing

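Of 108 values recomputed with another scaling, minimum count, depth, table or choice of cells, 92 stayed within a limit and 16 moved beyond it. Some of the 92 could not have moved, since a median of 0 stays at 0 under any scaling. This was so for exonic Grm2, Grm3, Grm4 and Grm8 over all cells and for Grm7 in late BRP. For levels and shares the limit was the standard deviation between cells. For numbers of cells with a count it was a fixed fold change, which takes no account of the spread between cells. With at least 5 counts required, exonic counts of Grm2, Grm3, Grm4 and Grm8 were found in 3, 7, 0 and 3 cells. With every cell thinned to 800000 exonic counts, which leaves no shallower cell out, they were found in 2, 6, 0 and 2 cells. With an exonic or intronic count accepted, they were found in 12, 28, 16 and 28 cells. Adding the intronic to the exonic counts gave a median level of 0.0613 CPM for Grm4 and 10.1 CPM for Grm8, both at 0 in the exons. It also gave 370 CPM for Grm7 in place of 2.31, 456 for Grm5 in place of 199 and 2.86 for Grm3 in place of 0, which is less than the wide spread between cells. The intronic share of Grm4 summed over cells was 99.9% in place of a median of 100%. The median of Grm5 in F was 2034 with DESeq2 size factors in place of 287 CPM, and the cause was not tested.

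Leaving out each cell in turn moved 1 of 450 values: the number of cells with exonic Grm4 was 0 to 1, being 0 without BRP571. Many of the 450 could not move. The exonic medians of Grm2, Grm3, Grm4 and Grm8 are 0 with most cells at 0. The numbers of cells for the genes other than Grm4 cannot pass their limit when 1 cell is left out. The 1 move is therefore no measure of stability. For numbers of cells, that count of moves is read against the fixed fold change. For levels and shares it is read against the wide spread between cells: the median intronic share of Grm2 went from 0% to 50% without BRP571 or without BRP540. The median of Grm5 over the 28 cells (199 CPM) stayed between 183 and 216 CPM. That of Grm7 (2.31 CPM) lies in the gap between low and high cells and ran from 0.361 CPM (without F7, F24 or any 1 early BRP cell) to 4.25 CPM (without any 1 of the others). Chosen after the data were seen, leaving out F16 and F1 gave 20.4 CPM for Grm7, leaving out F7 gave a median of 0 for Grm7 and 304 CPM for Grm5 in F, and leaving out BRP528 gave 334 CPM for Grm5 and 97.6 CPM for Grm7 in early BRP. No paired analysis was possible because the columns match no label and no test was made. Depth limits the 0 counts most in F.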
